A study of Mus musculus with 97 samples.

Results

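The Myc network is represented here by 8 genes of the deposited mouse RNA-seq table: the activators Myc (ENSMUSG00000022346) and Mycn (ENSMUSG00000037169), their partner Max, the antagonists Mxd1, Mxd3, Mxd4 and Mxi1, and the Max partner Mga. The genes were chosen by symbol, and all 8 are among the 37620 genes of the table and the 16011 that passed the filter on low counts. RNA was measured by sequencing of ribosomal RNA-depleted total RNA from a mouse embryonic stem (ES) cell line that carries GFP and Sox2 fused to an auxin-inducible degron (Sox2-AID). Sox2 is a transcription factor of pluripotent cells, and the degron lets auxin trigger destruction of the Sox2 protein. Cells received 0.5 mM auxin for 3 h or none, and both kinds were stained with 20 μM Hoechst and sorted on Hoechst and GFP levels into early G1, late G1 and G2. The 6 groups have 3 libraries each, and every group, treated or not, carries the degron-tagged Sox2. The labels name 1 line, do not say how many clones it came from, and do not say what GFP reports. Cells were grown in serum and LIF on gelatine, with PD0325901 and CHIR99021 added "when required". For the sorted cells the labels do not say whether those inhibitors, which block MEK and GSK3, were present. Nothing in the labels says that libraries of 1 group came from separate cultures, so p-values measure only the spread between these libraries.

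Myc-family proteins are basic helix-loop-helix leucine zipper transcription factors that bind DNA as dimers with Max, at the E box CACGTG and related sites, and recruit activators of genes for ribosome production, metabolism and cell division. Mxd proteins and Mxi1 compete for Max and bring the Sin3-histone deacetylase co-repressor to the same sites. Mga also pairs with Max and is the scaffold of PRC1.6, a Polycomb complex that holds germline genes silent in ES cells. In ES cells Myc and Mycn support growth and self-renewal and can partly replace one another.

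Of the 8 genes, 7 have a window in RefSeq's promoter table for GRCm38.p6. The stretches printed here belong to the 4 genes that passed the test between cell cycle phases: Mycn, Mxd1 and Mxd4, which were lower in late G1 than in early G1, and Mxd3, which was higher in G2. Each is the 250 bases before the annotated start, 5′ to 3′ on the gene's strand, with matches to the motifs in capitals. The searched letters were CACGTG (E box), CCAAT (the CCAAT box), TTTGGCGC, TTTCGCGC and GGCGGGA (E2F type), TTTGAA (the cell cycle homology element) and CATTGT (Sox type), on both strands, and they were chosen after the sequences had been seen.
Mycn: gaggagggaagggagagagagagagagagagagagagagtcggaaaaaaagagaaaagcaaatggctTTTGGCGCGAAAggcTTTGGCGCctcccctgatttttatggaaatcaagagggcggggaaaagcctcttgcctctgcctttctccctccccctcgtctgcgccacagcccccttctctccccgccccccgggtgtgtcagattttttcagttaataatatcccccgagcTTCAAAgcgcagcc
Mxd4: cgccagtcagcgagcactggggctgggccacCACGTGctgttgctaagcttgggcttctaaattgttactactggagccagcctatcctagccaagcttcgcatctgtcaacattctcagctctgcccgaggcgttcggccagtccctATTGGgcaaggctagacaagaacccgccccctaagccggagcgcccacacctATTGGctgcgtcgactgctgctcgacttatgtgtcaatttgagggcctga
Mxd1: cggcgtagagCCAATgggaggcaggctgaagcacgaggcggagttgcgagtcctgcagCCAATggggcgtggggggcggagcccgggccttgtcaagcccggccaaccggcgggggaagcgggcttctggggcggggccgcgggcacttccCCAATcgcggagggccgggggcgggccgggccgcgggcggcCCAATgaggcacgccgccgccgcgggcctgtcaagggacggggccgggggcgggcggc
Mxd3: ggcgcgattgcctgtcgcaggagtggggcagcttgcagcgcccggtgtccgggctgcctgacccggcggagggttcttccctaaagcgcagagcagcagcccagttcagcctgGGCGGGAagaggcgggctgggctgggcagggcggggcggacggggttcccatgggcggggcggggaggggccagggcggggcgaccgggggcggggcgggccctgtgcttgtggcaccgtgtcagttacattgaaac
Mycn (chr12:12941837-12942086, minus strand) held TTTGGCGC beginning 183 and 168 bases before the start, and TTTCGCGC on the other strand, at 179 bases, which overlaps the first of these. A window of 300 bases, 250 before and 50 after the start, held TTTGGCGC in 0.514% and TTTCGCGC in 0.323% of the 32851 windows of the table, and 2 windows held 2 or more TTTGGCGC. TTTGAA lay 14 bases before the Mycn start on the other strand, and 17.9% of windows hold it. Mxd4 (chr5:34187711-34187960, minus strand) held CACGTG 219 bases before the start, which 7.15% of windows hold, and CCAAT on the other strand at 102 and 50 bases. Mxd1 (chr6:86669160-86669409, minus strand) held CCAAT at 240, 192, 99 and 58 bases. CCAAT occurs in 37.4% of windows, and 4 or more copies in 1.06%. Mxd3 (chr13:55329732-55329981, minus strand) held GGCGGGA at 137 bases, which 11.3% of windows hold. CATTGT was in none of the windows of the 7 genes, against 12.6% of all windows. A match is a run of letters in the reference, not a measured binding site.

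Total counts were 24841963 to 37587322 per library, and libraries of a group differed by far more than counting error (chi-square per degree of freedom 14.7 to 53.8). The 10 ES cell markers summed to 3675 to 4325 CPM (counts relative to the TMM-scaled library size) in every library, but 4 of the 10 fell with auxin averaged over the phases and 0 rose. The 3 with the smallest p were Klf4 (-1.09 ± 0.12, edgeR adjusted p 3.03e-05), Zfp42 (-0.34 ± 0.05, 0.000334) and Nanog (-0.29 ± 0.04, 0.000532), and their part in the auxin changes of the network was not tested. The 10 fibroblast markers summed to 18.6 to 27.3 CPM, with none at 0 in all libraries and 5 below 1 CPM in every one. The G1/S genes (8 of 10 rose from early to late G1, led by Pcna, Ccne1 and Ccne2) and the G2/M genes (9 of 10 rose from late G1 to G2, both untreated) followed the sort labels there. From untreated early G1 to G2, 4 of 10 G2/M genes rose and 0 fell. From untreated early to late G1, 1 rose and 4 fell (median -0.25). Early G1 thus had more of some G2/M transcripts than late G1, and their part in the members' phase changes was not tested. The 3 untreated libraries numbered 3 stood apart on the first principal component (16.8% of the variance), at 32.4 (early G1), 55.8 (late G1) and 31.8 (G2), against -32.0 to 18.6 for the other libraries, and they had the lowest total of their groups. Sox2 transcript averaged 322 to 379 CPM in the 6 groups, which says nothing about the protein that auxin acts on.

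Mga was the most abundant of the 8 transcripts and Mxd1 and Mxd4 the least. On TPM, a measure of transcript abundance that is per length and so can be compared between genes, Mga ranked first in 18 of 18 libraries. Max was second in 15 libraries and Mycn in 3, which were the untreated early G1 libraries. Myc took rank 4 in 16 libraries, Mxd4 rank 7 in 18 and Mxd1 rank 8 in 17. In untreated early G1 the mean TPM was 8.96 ± 1.90 (SD, n = 3, as for all means) for Mga, 7.21 ± 1.44 for Mycn, 5.88 ± 0.59 for Max and 2.67 ± 0.65 for Myc. The antagonists had 0.950 ± 0.104 (Mxi1), 0.853 ± 0.080 (Mxd3), 0.587 ± 0.021 (Mxd4) and 0.280 ± 0.035 TPM (Mxd1). In that group the ranges of Mga and Mycn, of Mycn and Max, and of Mxi1 and Mxd3 overlapped, and the other neighbours in the order did not. Mycn exceeded Myc in 18 of 18 libraries. Mxd3 exceeded Mxi1 in 10 of 18, and their order went with the phase. Mxi1 was the higher in every early G1 library and Mxd3 in every G2 library, while late G1 was mixed.

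**Figure D1:**
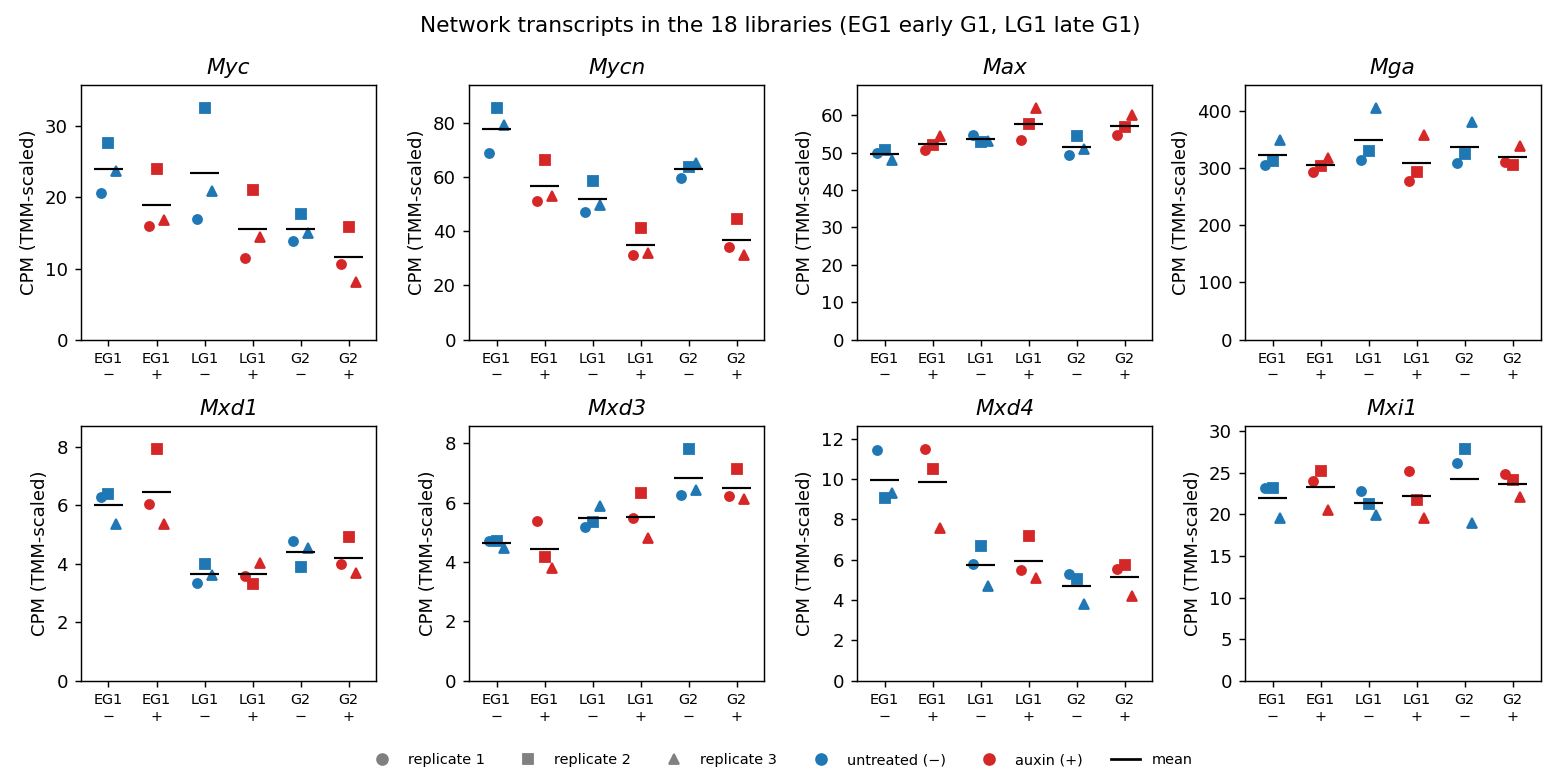
Level of each of the 8 transcripts in CPM (y axis, from 0) in the 18 libraries, by group (x axis, EG1 early G1, LG1 late G1, − untreated, + auxin). Points are libraries, their shape is the replicate number and bars are means. Mycn is lower with auxin than without in each phase with no overlap, Mxd1 and Mxd4 have their highest means in early G1, and Mga and Max pass no edgeR test without the replicate block.

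Auxin lowered Mycn, and no other member passed the edgeR test in any auxin comparison without the replicate block. In early G1, Mycn stood at 68.8, 85.5 and 79.2 CPM in untreated replicates 1, 2 and 3 and at 51.1, 66.2 and 52.9 CPM in the treated ones. Untreated late G1 gave 47.2, 58.7 and 49.8 CPM, and treatment brought 31.2, 41.2 and 32.1. For G2 the untreated replicates gave 59.8, 63.9 and 65.3 CPM and the treated ones 34.3, 44.4 and 31.2. In each phase every treated library lay below every untreated one, and the same held for all 9 pairs of libraries with the same number. How many of all tested genes separate in these ways was not counted, here or for the non-overlaps and pair counts below. Mycn is one of the 910 genes (5.68% of 16011) that passed for the effect averaged over the 3 phases, 494 of which fell. Its averaged log2 fold change was -0.60 ± 0.08 (SE), a level 0.658 times the untreated one (edgeR adjusted p 0.000125). It passed in each of the 18 fits that left out 1 library and, at -0.60 ± 0.10 (adjusted p 0.00199), without the 3 untreated libraries numbered 3. Fewer cells expressing Mycn and less Mycn RNA per cell cannot be told apart in these bulk libraries.

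By phase, 1 of 8 members passed in G2, where 0.668% of tested genes did, and 0 of 8 in late G1 (1.02%) and early G1 (0.106%). In G2 the log2 fold change of Mycn was -0.78 ± 0.14 (edgeR adjusted p 0.00875). That call was lost in 3 of 6 fits leaving out a library, with an adjusted p up to 0.0843 without G2 auxin replicate 3, and it was 0.0667 without the untreated libraries numbered 3. In late G1 the change was -0.57 ± 0.14 (adjusted p 0.0592) and in early G1 -0.46 ± 0.14 (adjusted p 0.525). With the replicate number as a block, which is taken to pair the libraries in these G1 comparisons, Mycn passed in late G1 (-0.58 ± 0.08, adjusted p 2.53e-05) and in early G1 (-0.46 ± 0.07, adjusted p 0.000781), where 5.97% and 1.59% of tested genes then did. Whether the effect differed between phases was tested directly. The change in G2 minus that in early G1 was -0.33 ± 0.20 for Mycn (edgeR p 0.115 before adjustment). With the replicate block it was -0.33 ± 0.10 (edgeR adjusted p 0.9999), though the numbers pair the G2 libraries less clearly.

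None of the 8 members passed in any of the 3 tests of a difference in auxin effect between phases. In these tests edgeR called 0% of the 16011 genes, 222, 222 and 219 genes had an unadjusted p below 0.05 (in the order late G1 less early G1, G2 less early G1, G2 less late G1), and 0 members did. These counts are below the share of 0.05 that would arise with no effect at all, so the tests were conservative and can miss real differences. With the replicate block 1, 0 and 0 genes passed, in the same order, and no member did. DESeq2 called 1 gene for late G1 less early G1 and 0 in the other contrasts.

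Myc was lower with auxin in all 9 pairs of libraries with the same number, but did not pass the edgeR test without the replicate block. Myc in early G1 was 20.6, 27.7 and 23.7 CPM in untreated replicates 1 to 3 and 15.9, 24.0 and 16.8 in treated ones. Untreated late G1 gave 17.0, 32.6 and 20.9 CPM against 11.4, 21.0 and 14.4 after treatment. Untreated G2 gave 13.9, 17.6 and 15.0 CPM against 10.6, 15.9 and 8.12 after treatment. The treated and untreated ranges overlapped in every phase, and replicate 2 was the highest library in 6 of 6 groups. The averaged log2 fold change was -0.45 ± 0.16 (edgeR adjusted p 0.109), and the single phases gave -0.34 ± 0.27 (early G1), -0.59 ± 0.27 (late G1) and -0.42 ± 0.28 (G2). DESeq2 called the averaged change (adjusted p 0.0347). With the replicate block Myc passed in late G1 (-0.58 ± 0.12, adjusted p 0.00549) and not in early G1 (adjusted p 0.153). In the average it passed with the block (-0.47 ± 0.07, adjusted p 0.000107), where 24.6% of tested genes did, though the numbers pair the G2 libraries less clearly.

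The obligate partner Max changed by 0.11 ± 0.04 in the average (edgeR adjusted p 0.120), with 48.2 to 54.7 CPM in untreated libraries and 50.7 to 62.0 in treated ones, and it was higher in 8 of 9 pairs. On TPM with a pseudocount of 0.1 the same quantity for Max was -0.09, where the median of all tested genes was -0.16, so its sign depends on the scaling. Mga, the PRC1.6 scaffold, changed by -0.11 ± 0.06 (adjusted p 0.303), with 306 to 405 CPM untreated and 278 to 358 CPM with auxin. It was lower in 8 of 9 pairs, and replicate 3 was the highest in 6 of 6 groups. The 4 antagonists gave the smallest averaged changes of the 8 genes: Mxd1 0.01 ± 0.10, Mxd3 -0.04 ± 0.09, Mxd4 0.06 ± 0.11 and Mxi1 0.03 ± 0.08. In single phases their auxin changes lay between -0.07 and 0.13, each smaller than its SE of 0.13 to 0.20, and changes of that size were not detectable. Mga overlaps the pseudogene Gm13998 and Mxd3 overlaps Prelid1 in the RefSeq annotation, both are in the table, and whether counting used strand is not given in the sources used here, so shared reads cannot be told apart.

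**Figure D2:**
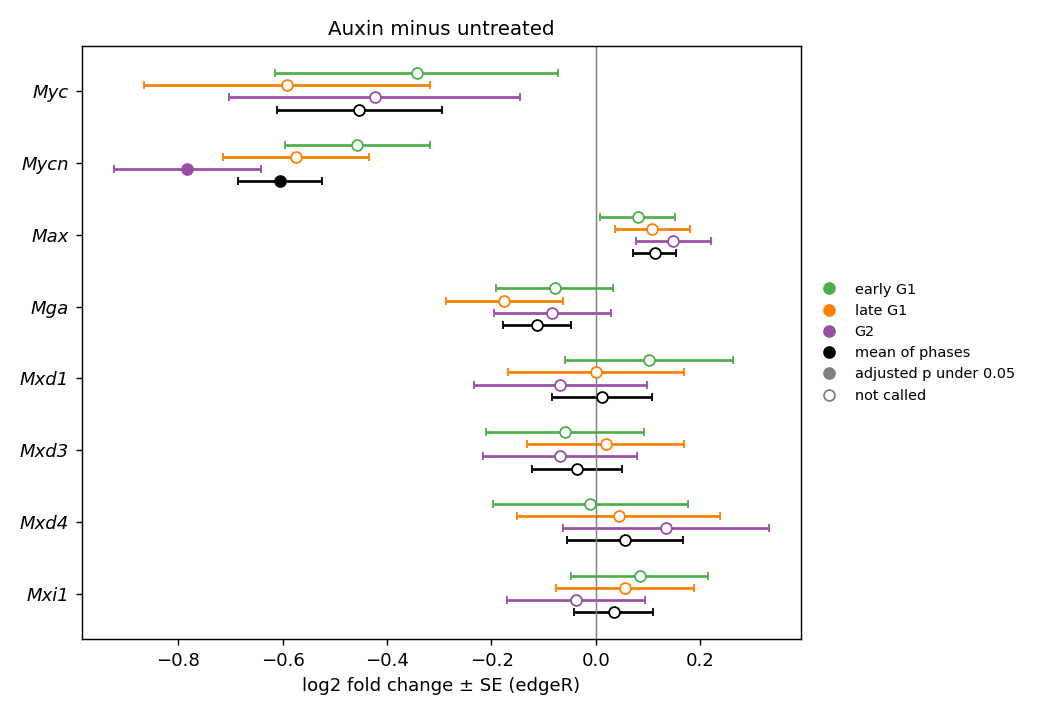
Log2 fold change of auxin over untreated (x axis, edgeR, bars are SE) for the 8 genes (y axis) in each phase and averaged over phases. Filled points have an adjusted p below 0.05: Mycn in G2 (-0.78) and in the average (-0.60), while Myc lies at -0.45 in the average with a wider error and the 4 antagonists between -0.04 and 0.06.

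Without auxin, Mycn and the antagonists Mxd1 and Mxd4 fell from early to late G1: 3 of 8 members passed, where 7.02% of tested genes did. Mycn averaged 77.9 ± 8.4 CPM in early and 51.9 ± 6.0 CPM in late G1, and its log2 fold change was -0.59 ± 0.14 (edgeR adjusted p 0.0149). Mxd1, an antagonist known from differentiating cells, had 6.27, 6.37 and 5.35 CPM in early G1 and 3.33, 3.97 and 3.63 in late G1. Its change was -0.72 ± 0.17 (adjusted p 0.0125). Mxd4 had 11.4, 9.05 and 9.30 CPM in early G1 and 5.80, 6.68 and 4.68 in late G1, a change of -0.79 ± 0.19 (adjusted p 0.0160). For each of the 3 genes every late G1 library lay below every early G1 library. The early and late G1 libraries of Max and Mxd3, which did not pass, did not overlap either. Myc did not move with Mycn here, at -0.03 ± 0.27 (adjusted p 0.967), from 24.0 ± 3.6 to 23.5 ± 8.1 CPM. Without the libraries numbered 3, Mxd1 passed (-0.79 ± 0.20, adjusted p 0.0431), and Mycn (-0.54 ± 0.18, 0.123) and Mxd4 (-0.71 ± 0.21, 0.0763) did not. Single leave-outs, made without the replicate block, ended the call of Mycn in 3 of 6 fits (adjusted p up to 0.0746, without early G1 untreated replicate 2), of Mxd1 in 2 of 6 (0.0590, without late G1 untreated replicate 1) and of Mxd4 in 2 of 6 (0.0810, without early G1 untreated replicate 1). With the replicate block, where 21.8% of tested genes passed, the 3 genes kept their calls. Mycn changed by -0.59 ± 0.07 (edgeR adjusted p 6.58e-06), Mxd1 by -0.72 ± 0.15 (0.00164) and Mxd4 by -0.81 ± 0.13 (8.19e-05).

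Between early G1 and G2 without auxin, Mxd4 fell further and Mxd3 rose. These were 2 of 8 members, where 3.6% of tested genes passed. Mxd4 had 5.29, 5.02 and 3.80 CPM in G2, a log2 fold change of -1.08 ± 0.19 from early G1 (edgeR adjusted p 0.00365), and kept its call in 6 of 6 leave-outs and without the libraries numbered 3 (-0.99 ± 0.22, adjusted p 0.0327). Mxd3, the antagonist known to be expressed in S phase and proliferating cells, had 4.72, 4.71 and 4.49 CPM in early G1. Late G1 gave 5.17, 5.34 and 5.89 CPM for Mxd3 and G2 gave 6.26, 7.80 and 6.42. Its 3 untreated groups did not overlap, and the G2 minus early G1 change was 0.56 ± 0.15 (adjusted p 0.0466), a call lost in 6 of 6 leave-outs (adjusted p 0.0678 to 0.211, the highest without G2 untreated replicate 2). Myc (-0.63 ± 0.27, adjusted p 0.257), Mycn (-0.31 ± 0.14, 0.272) and Mxd1 (-0.45 ± 0.16, 0.156) did not pass. The groups of each did not overlap, a separation whose share among all tested genes was not counted. With the replicate block Myc (edgeR adjusted p 0.00175) and Mycn (0.00753) passed. Mxd3 (0.55 ± 0.14, adjusted p 0.00785) and Mxd4 (-1.09 ± 0.13, 4.67e-06) kept their calls with the block, which the leave-outs did not use. In all, 4 of 8 members passed, where 14.7% of tested genes did with the block.

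From late G1 to G2, 0 of 8 members passed without auxin, against 5.04% of tested genes, and 2 had an unadjusted edgeR p below 0.05. Those were Myc (-0.60 ± 0.27) and Mxd3 (0.32 ± 0.15). Mycn changed in the opposite sense to Myc, by 0.28 ± 0.14 (adjusted p 0.314), and its G2 libraries all lay above its late G1 libraries. With the replicate block both passed, Myc at -0.56 ± 0.12 (adjusted p 0.00348) and Mycn at 0.29 ± 0.07 (adjusted p 0.00896), where 15.9% of tested genes did. DESeq2 called 0 members.

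With auxin, the 3 genes that fell from early to late G1 were again Mycn, Mxd1 and Mxd4, where 7.42% of tested genes passed. The treated libraries are other samples than the untreated ones, but the comparisons with and without auxin are not independent. All 18 libraries share a common estimate of the spread. Libraries with the same number also correlated across treatment (0.253 to 0.274 in early G1, 0.198 to 0.269 in late G1). Mycn changed by -0.70 ± 0.14 (edgeR adjusted p 0.00459) and Mxd1 by -0.82 ± 0.17 (adjusted p 0.00474), and both kept the call in 6 of 6 leave-outs. Mxd1 had 6.05, 7.91 and 5.35 CPM in early G1 and 3.58, 3.32 and 4.03 in late G1. Mxd4 had 11.5, 10.5 and 7.57 CPM in early G1 and 5.48, 7.17 and 5.10 in late G1, a change of -0.74 ± 0.19 (adjusted p 0.0226) that lost its call in 4 of 6 leave-outs (up to 0.113, without early G1 auxin replicate 1). Groups did not overlap for any of the 3. With the replicate block, where 22.6% of tested genes passed, the 3 genes kept their calls. Mycn changed by -0.70 ± 0.07 (edgeR adjusted p 6.64e-07), Mxd1 by -0.81 ± 0.15 (0.00051) and Mxd4 by -0.73 ± 0.12 (0.000207). Myc changed by -0.28 ± 0.27 (adjusted p 0.596).

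From early G1 to G2 with auxin, 4 of 8 members passed, where 3.88% of tested genes did. Mycn (-0.63 ± 0.14, edgeR adjusted p 0.0150), Mxd1 (-0.62 ± 0.16, adjusted p 0.0408) and Mxd4 (-0.93 ± 0.19, adjusted p 0.00914) fell and Mxd3 (0.55 ± 0.15, adjusted p 0.0478) rose. G2 libraries had 3.99, 4.91 and 3.69 CPM of Mxd1, 5.52, 5.76 and 4.21 of Mxd4, and 6.23, 7.15 and 6.13 of Mxd3. Mxd3 in treated early G1 had 5.40, 4.17 and 3.78 CPM, below every G2 library. Leaving out a library ended the call of Mycn in 3 of 6 fits (up to 0.0937, without G2 auxin replicate 3), of Mxd1 in 4 of 6 (0.205, without early G1 auxin replicate 2), of Mxd3 in 5 of 6 (0.189, without early G1 auxin replicate 3) and of Mxd4 in 2 of 6 (0.0633, without G2 auxin replicate 3). With the replicate block, which the leave-outs did not use and where 15.2% of tested genes passed, these 4 members kept their calls. Mxd3 then changed by 0.54 ± 0.13 (edgeR adjusted p 0.00809), and Mycn (3.85e-06), Mxd1 (0.00684) and Mxd4 (2.18e-05) had smaller adjusted p. Myc passed as well with the block (-0.72 ± 0.12, adjusted p 0.000581). From late G1 to G2 with auxin 0 of 8 passed, against 5.91% of tested genes, and 0 had an unadjusted edgeR p below 0.05; with the block Myc fell (-0.43 ± 0.13, adjusted p 0.0230, beside 17.7% of tested genes), and DESeq2 called 0. Max and Mxi1 passed in no phase comparison, with changes of -0.05 to 0.14 for Max and -0.07 to 0.19 for Mxi1. Mga, between -0.05 and 0.12, passed in none either. On TPM as deposited, whose median over tested genes differed between libraries (0.69 to 1.12), none of these phase calls nor that of Mycn for auxin in G2 passed. With each library divided by that median, an alternative chosen after seeing the data, limma called Mycn for auxin in G2 and from early to late G1 with and without auxin, and Mxd1 from early to late G1 with auxin. From early G1 to G2 it called Mxd3 with and without auxin, Mycn with auxin, and Mxd4 in untreated cells (-0.86 ± 0.18, adjusted p 0.0209). Mxd4 did not pass there in the other phase comparisons, and Mxd1 passed in no other.

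**Figure D3:**
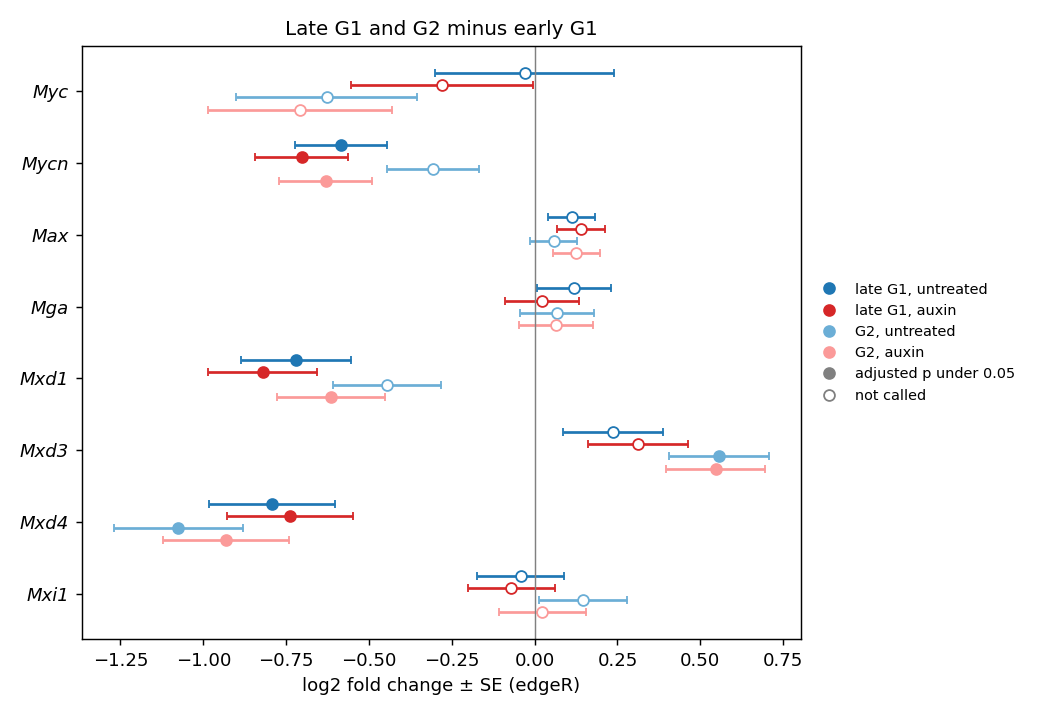
Log2 fold change of late G1 and of G2 over early G1 (x axis, edgeR, bars are SE) for the 8 genes (y axis), in untreated and auxin-treated cells. Filled points have an adjusted p below 0.05: Mxd4 lies at -0.74 to -1.08 in the 4 comparisons and passes in each, Mxd3 is the one gene above 0 that passes, and Myc lies near 0 in untreated late G1.

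The share of Mycn in the summed Myc and Mycn TPM was lowest in late G1. It is a ratio within a library, given as a description with no test. Untreated replicates 1 to 3 gave 74.4, 72.8 and 72.2% (early G1), 68.8, 59.7 and 67.3% (late G1) and 78.8, 75.2 and 79.5% (G2), and the 3 groups did not overlap. Treated ones gave 73.8, 70.7 and 73.5% (early G1), 70.4, 61.8 and 62.5% (late G1) and 73.9, 70.9 and 77% (G2). Treated and untreated libraries overlapped in each phase.

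The summed TPM of Mxd1, Mxd3, Mxd4 and Mxi1 per TPM of Myc plus Mycn was 0.277 ± 0.050 in untreated early G1, the lowest group mean. It was 0.333 to 0.469 in treated early G1, which overlaps the untreated range of 0.246 to 0.335. In late G1 it was 0.290 to 0.399 without and 0.449 to 0.668 with auxin, and in G2 0.318 to 0.414 without and 0.515 to 0.670 with auxin, with no overlap in either phase. The antagonist sum on TPM as deposited did not rise with auxin: its mean was 2.32 without and 2.08 with auxin in late G1, and 2.72 and 2.36 in G2. Myc plus Mycn had 6.79 and 4.06 in late G1, and 7.17 and 3.97 in G2, so the higher ratio goes with a lower denominator. Unlike the ratio, these sums depend on the scale of each library. The median TPM of tested genes was 0.69 to 0.96 with auxin and 0.81 to 1.05 without in late G1. In G2 it was 0.75 to 1.03 with auxin and 0.92 to 1.05 without. On TMM-scaled counts the averaged log2 changes of the 4 antagonists lay between -0.04 and 0.06, beside -0.45 for Myc and -0.60 for Mycn. Max TPM per TPM of Myc plus Mycn ran from 0.555 to 0.694 in untreated early G1 and from 1.19 to 1.90 in treated G2. Within the antagonists, Mxd4 made up 19.7 to 24.1% of the summed TPM in untreated early G1 and 8.75 to 11.2% in untreated G2, and Mxd3 30.4 to 33.2% and 41.1 to 48.8%. Transcript ratios say nothing of the proteins, which in this family turn over fast.

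**Figure D4:**
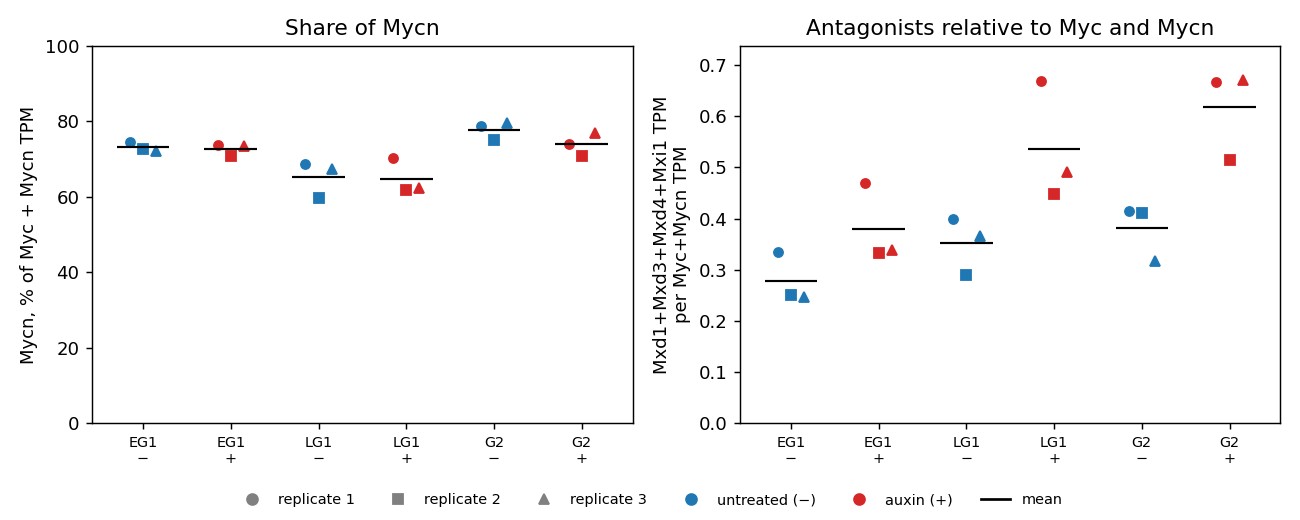
Left, Mycn as a percent of Myc plus Mycn TPM (y axis, from 0 to 100) in the 18 libraries by group (x axis, EG1 early G1, LG1 late G1, − untreated, + auxin); right, summed TPM of the 4 antagonists per summed TPM of Myc and Mycn. Points are libraries and bars are means: the share is lowest in late G1 (59.7 to 70.4%), and the ratio has its highest mean in auxin-treated G2 (0.617), whose libraries (0.515 to 0.670) overlap those of auxin-treated late G1 (0.449 to 0.668).

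Around the 8 genes, the lists of the network's machinery were read for auxin averaged over the phases, where 5.68% of all tested genes passed. Of 5 tested genes of the extended network (Mycl1, Mnt, Mlx, Mlxip and Mlxipl), 1 fell: Mlxip, the glucose-sensing partner of Mlx (-0.31 ± 0.07, edgeR adjusted p 0.0123). Of 19 Myc co-factors 2 fell, Hcfc1 (-0.35 ± 0.09, adjusted p 0.0343) and Bptf (-0.25 ± 0.07, adjusted p 0.0490), a chromatin remodelling subunit. Among 17 co-repressors of Mxd and Mnt, the genes that fell included the Sin3 subunit Sap30 (-0.28 ± 0.05, adjusted p 0.00141). Of 20 genes of Myc protein turnover 1 fell, Usp28, a deubiquitinase that stabilises Myc (-0.26 ± 0.04, adjusted p 0.00111). None of these 4 lists had a gene that rose. Among 12 other PRC1.6 subunits and 21 germline genes that PRC1.6 silences, 0 passed in the edgeR test. With DESeq2 1 subunit and 0 germline genes passed. The median log2 change was 0.03 for the subunits and 0.16 for the germline genes, beside 0.01 for all tested genes.

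Of the listed target genes of Myc, 4 of 59 activated and 2 of 15 repressed ones passed for auxin in the average, beside 5.68% of all tested genes. Of the 59 listed as activated by Myc, 2 rose and 2 fell, a median of 0.03 beside 0.01 for all tested genes. Those that fell were Pprc1, a coactivator of mitochondrial genes (-0.45 ± 0.10, edgeR adjusted p 0.0123), and Ncl, which encodes nucleolin (-0.20 ± 0.05, adjusted p 0.0212), while Tfrc, the transferrin receptor, rose (0.20 ± 0.05, adjusted p 0.0216). Of 15 genes listed as repressed by Myc, 2 fell, the growth arrest gene Gadd45a (-0.57 ± 0.07, adjusted p 9.15e-05) and Cebpd (-0.72 ± 0.20, adjusted p 0.0419), and 0 rose, with a median of 0.05. Cebpd had low counts, with group means of 0.33 to 1.21 CPM. With a stricter low-count filter, and with none, 1 of the 15 passed.

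Between untreated early and late G1, where Mycn fell, 10 of the 59 listed activated targets rose and 0 fell, and 58 lay above 0 (median 0.24 beside 0.00 for all tested genes). Over all tested genes 7.02% passed there, 523 up and 601 down. The 3 with the smallest p were the folate enzyme gene Shmt1 (0.66 ± 0.09, edgeR adjusted p 0.000145), the centriole kinase gene Plk4 (0.54 ± 0.09, adjusted p 0.00102) and the ribosome assembly gene Ppan (0.42 ± 0.07, adjusted p 0.00133). The G1/S genes rose in the same comparison (8 of 10, median 0.55), and their part in the targets' change was not tested. Of the 15 repressed targets 0 rose and 1 fell, and 4 lay above 0 (median -0.29 beside 0.00 for all tested genes). The 1 that fell was Cdkn1b, which encodes the cell cycle inhibitor p27 (-0.88 ± 0.12, adjusted p 0.000122), and it rose again from late G1 to G2 (0.91 ± 0.12, adjusted p 5.72e-05).

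In the same phase comparison, with its 7.02% of genes called, 2 of 12 PRC1.6 subunits rose, E2f6 (0.64 ± 0.13, edgeR adjusted p 0.00678) and its dimer partner gene Tfdp1 (0.61 ± 0.16, adjusted p 0.0279), and E2f6 fell again from late G1 to G2 (-0.57 ± 0.13, adjusted p 0.0161). Of the co-repressors Sin3a rose (0.37 ± 0.08, adjusted p 0.0108) and Arid4a fell (-0.36 ± 0.10, adjusted p 0.0452). The ubiquitin ligase gene Skp2, both a co-factor and a turnover gene of Myc, rose (0.50 ± 0.09, adjusted p 0.00228). The kinase genes Aurka (-1.05 ± 0.13, adjusted p 6.70e-05) and Plk1 (-0.94 ± 0.20, adjusted p 0.00852) fell, and both are also on the G2/M list. Mycl1, another Myc family gene, had 8.05 ± 0.73 CPM (early G1), 5.73 ± 0.98 (late G1) and 4.38 ± 0.69 (G2) without auxin, and fell between early G1 and G2 (-0.88 ± 0.16, adjusted p 0.00481). 

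Across the 18 libraries, the genes whose log2 CPM followed that of Mycn most closely, among 7934 genes of sufficient level, were Tfe3 (Pearson r 0.930), Mical1 (0.925) and Alg13 (0.915). Tfe3, a basic helix-loop-helix factor, fell with auxin in the average (-0.34, edgeR adjusted p 0.0305), as did Alg13 (-0.15, adjusted p 0.0394). The closest to Mxd4 were Bmf (0.957), Ifnar1 (0.930) and Pik3r3 (0.916), and to Mxd1 Rtn4 (0.902), Rc3h1 (0.896) and Phf13 (0.894). The libraries share groups, replicate numbers and scaling, so these values describe a shared pattern.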

How the data were processed

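Of the series, only the 18 RNA-seq libraries were used; the ChIP-seq, ATAC-seq and MNase-seq samples were not analysed here. Of tools and builds, RSEM, STAR, MACS2, Bowtie2 and mm9 are listed in the submitters' processing notes, with no version or role. The deposited table of expected counts holds estimated reads per gene as whole numbers, and TPM come from a second deposited table, made by the authors to 2 decimals. Groups and replicate numbers come from the sample titles.

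Genes were filtered with filterByExpr (16011 kept) and TMM-scaled, and the quasi-likelihood F test of edgeR 4.0.16 was run on a group-means model of 18 libraries, with 12 residual degrees of freedom and Benjamini-Hochberg adjustment over all genes tested; a gene passed below 0.05. There were 13 contrasts. The script was tested on simulated data. Alternatives used DESeq2 1.42.0, limma 3.58.1 on log2(TPM + pseudocount), other scaling and filters, and left-out libraries. All 8 members are reported. Genes named from a list are taken from the up to 3 passing ones with the smallest adjusted p in the averaged auxin contrast and up to 3 in an untreated phase contrast; likeness was ranked for the 3 members with the smallest adjusted p. Members and lists were chosen with earlier results of these data known. The result of 1 list gene is not reported here.

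Pairing by replicate number is not in the labels. All 18 libraries correlated best with their own number, and every same-number pair exceeded 0.1 within early G1 (0.253 to 0.274), within late G1 (0.198 to 0.269) and between phases of the same treatment (0.177 to 0.462), but not between G2 with and without auxin (lowest 0.055). The block is therefore read beside the former. Where it is also given for the average or for contrasts that hold G2 with and without auxin, it is an alternative whose pairing missed that limit.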

Additional observations from a re-analysis of the deposited data

How the results depend on the processing

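The averaged fall of Mycn passed under every alternative run. Leaving out 1 library at a time gave 1 to 2 members called for auxin averaged over phases (Mycn, and once Myc, without G2 auxin replicate 2), 0 to 1 in G2, 0 to 1 in late G1 (Mycn passed without late G1 auxin replicate 2), 0 in early G1 and 0 for each difference in auxin effect. For late minus early G1 it gave 1 to 3 untreated and 2 to 3 with auxin, for G2 minus early G1 1 untreated and 0 to 3 with auxin, and for G2 minus late G1 0. With the replicate block 1 member was called for auxin in early G1 (1.59% of all tested genes), 2 in late G1 (5.97%), 4 in the average (24.6%; Myc, Mycn and Mga lower, Max higher), 4 and 2 for untreated G2 minus early and minus late G1 (14.7% and 15.9%), and 1 for G2 minus late G1 with auxin (17.7%). The block raised the calls over all genes from 910 to 3942 in the average, and in the average it called 18 of 59 activated targets, 11 of 19 co-factors, 9 of 20 turnover genes, 8 of 21 germline genes, 6 of 15 repressed targets, 4 of 17 co-repressors, 2 of 12 PRC1.6 subunits and 2 of 5 extended network genes. For auxin in G2, where libraries with the same number correlated at 0.195, 0.055 and 0.183 (replicates 1 to 3), the block changed no member's call. DESeq2 called 1 member in late G1 and 2 in the average, with 6 of 19 co-factors, 4 of 20 turnover genes and 1 of 12 subunits. With no low-count filter, which tests 25860 genes, 1 and 2 members were called for G2 minus early G1 (untreated and auxin).

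On TPM with a pseudocount of 1 or 0.1, 0 members were called for auxin in G2, for late minus early G1 and for G2 minus early G1, with or without auxin. The median TPM of tested genes differed between libraries (0.69 to 1.12), and 61 genes rose and 716 fell in the average with a pseudocount of 1. After dividing each library by its median, an alternative chosen after seeing the data, Mycn passed in G2 (-0.73, adjusted p 0.0139) and in the average; 1 member was called for untreated late minus early G1 (Mycn) and 2 for G2 minus early G1 with auxin (Mycn and Mxd3). Without the untreated libraries numbered 3, 1 member was called for untreated late minus early G1, 1 for G2 minus early G1 and 0 for auxin in G2. The other filters and scalings moved list counts in the average by at most 2 genes. Of 1776 member values under alternatives, 145 changed sign, all of them values that passed in neither fit. Depth limits Mxd1, Mxd3 and Mxd4 most, with 93 to 389 counts per library.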
